A study of Mus musculus with 46 samples.

Results

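Cortical GABAergic neurons arise from separate embryonic territories, and the medial and caudal lineages were compared here in single neurons of adult and juvenile mouse frontal cortex. The medial lineage was represented by Martinotti, PV basket, upper chandelier and long-projecting cells, and the caudal lineage by interneuron-selective and CCK basket cells. Cells were assigned by their labelled type alone. These 6 types held 532 of the 584 cells and 42 of the 46 libraries of the series, with 405 medial cells in 34 libraries and 127 caudal cells in 8 libraries. The 52 deep chandelier cells in 4 libraries were left out of every test and are described beside the results.

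Most cortical GABAergic neurons are born in the medial and caudal ganglionic eminences, transient swellings of the ventral forebrain, and migrate tangentially into the cortex. In the medial eminence the homeodomain factor Nkx2-1 switches on Lhx6, which stays on after the cells leave and acts upstream of Sox6 and Satb1 to produce the Sst and Pvalb classes. The caudal eminence gives rise to cells that depend on factors such as Prox1, Nr2f2 and Sp8, and its offspring include the Vip cells, many of which contact other interneurons.

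The labels describe wild-type mice, in which a fluorescent reporter marked the cells and no experimental treatment was applied. Martinotti cells came from Sst-Flp; CR-Cre; Ai65 mice, females of 35 days, with 2 animals. Interneuron-selective cells came from Vip-Flp; CR-Cre; Ai65 mice, females of 32 days, with 2 animals. CCK basket cells came from Vip-Flp; CCK-Cre; Ai65 mice, males of 39 and 40 days, with 2 animals. PV basket cells came from Pv-iresCre; Ai14 mice of both sexes, 58 to 83 days old, with 4 labelled animals. Upper chandelier cells came from Nkx2.1-CreER; Ai14 females of 40 to 58 days (2 animals, 1 library labelled Ai15, and 1 of the animals labelled with both ages), induced with tamoxifen late in embryonic life. Long-projecting cells came from Sst-Flp; Nos1-Cre; Ai65 males of 28 and 29 days, with 4 animals. Deep chandelier cells carried the upper chandelier alleles and came from 2 males of 34 days. The reporters Ai65 and Ai14 label a cell only after recombination, the first by both Flp and Cre and the second by Cre. Both caudal types therefore carry Vip-Flp, so that caudal origin cannot be told apart here from a Vip class, and caudal cells without Vip were not sampled. Only the chandelier label depends on a lineage gene of the medial eminence, and the other assignments rest on the known origin of each type. Tissue was frontal cortex throughout, but layers differed between types, from layer 2/3 to all layers, and so did age, sex and sequencing flow cell.

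Cells were picked singly, their RNA was amplified linearly, and up to 16 cells shared a library under 16 cell barcodes that were used again in every library. The deposited values are expected counts per gene and cell. Counts were summed over cells per animal into 14 animal sums of 1203737 to 12324142 counts, 10 medial and 4 caudal. PV basket animals 7 and 8, and 9 and 10, were each summed together, because 8 pairs of their libraries differed by little more than sampling noise. In those pairs the squared difference was 1.22 to 1.72 times its expectation, against 5.36 or more in the other pairs of libraries of one type. Each pair was counted as 1 sample. Median counts per cell ran from 42258 in interneuron-selective cells to 155732 in CCK basket cells. Levels below are CPM, counts scaled to a common library total, in each animal sum, and a lineage mean gives each type equal weight.

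Some libraries stood apart. The 6 caudal lineage markers (Prox1, Adarb2, Npas1, Sp8, Nr2f2 and Htr3a) summed to 4298 to 8201 CPM in the caudal animal sums and to a median of 56.3 CPM in the medial ones, whose highest was 605 CPM in upper chandelier animal 13. That value came from upper chandelier library 1, where the markers summed to 1882 CPM and where all 16 cells held counts of both Vip and Lhx6. In deep chandelier library 4 they summed to 2081 CPM, and all 8 cells held both. Adarb2 alone gave 2031 CPM of that sum, with Prox1 at 3.84, Htr3a at 2.75 and Nr2f2 at 0 CPM. In upper chandelier library 1 Adarb2 gave 1638 CPM, with Prox1 at 40.6, Htr3a at 46.8 and Nr2f2 at 102 CPM. Adarb2 also made up most of the sum in caudal libraries, as in CCK basket library 1 with 7176.5 of 7956.3 CPM. The 5 oligodendrocyte markers summed to 852 CPM in interneuron-selective library 3 and to 698 CPM in long-projecting library 2. All 6 GABAergic markers were detected in both lineages, at a summed level of 3757 to 5974 CPM in the medial animal sums and 2187 to 3520 CPM in the caudal ones. The 5 medial lineage markers (Lhx6, Sox6, Satb1, Nxph1 and Nkx2-1) summed to 879 to 1389 CPM in the medial and 99.1 to 126 CPM in the caudal animal sums. Markers of excitatory neurons, astrocytes, microglia and endothelium summed to at most 66.5 CPM in any animal sum. The labelled types thus carried the markers of their lineage, with the exceptions named. What these libraries contribute was measured for some of the results by leaving them out.

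**Figure D1:**
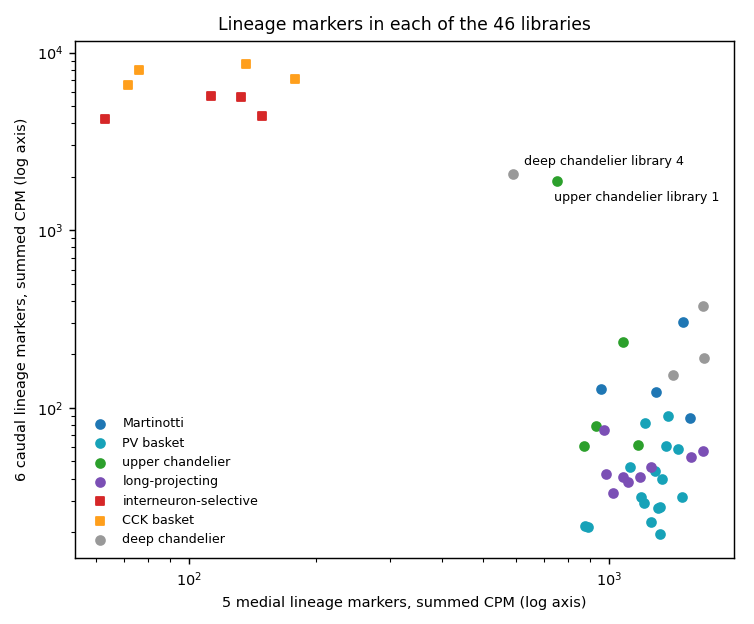
Summed CPM of 5 medial lineage markers (horizontal, log axis) and 6 caudal lineage markers (vertical, log axis), with 1 point per library, circles for medial types and deep chandelier cells and squares for caudal types. Caudal libraries lie at the upper left. Upper chandelier library 1 and deep chandelier library 4 lie between the groups at 1882 and 2081 CPM of caudal markers. Adarb2 alone gave 1638 and 2031 CPM of these sums.

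Which genes differ between the lineages was asked with 1 contrast of fitted log levels. It set the mean log level of the 4 medial types against that of the 2 caudal types. Mean CPM and their ratios are plain means, so they can differ from the fitted log2 difference given beside them. The fit covered 15477 genes, and 1955 of them (12.6%) had an adjusted p below 0.05 (edgeR, quasi-likelihood fit, p-values adjusted by Benjamini and Hochberg over all of them). Of these, 960 (6.20% of all tested) were higher in the medial types and 995 (6.43%) in the caudal types. A difference of means can come from 1 type, so a gene was said to separate the lineages only if it passed and, in addition, every animal sum of one lineage lay above every animal sum of the other. This held for 396 genes (2.56%), 171 higher in the medial lineage (1.10%) and 225 higher in the caudal lineage (1.45%). Their median ratio of lineage means was 4.21 on the medial side and 5.36 on the caudal side. More than 8-fold differences were seen in 58 and 79 of them, and less than 2-fold differences in 23 and 13.

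Stricter readings left fewer genes. Each of the 8 pairs of a medial with a caudal type was tested in the same fit (edgeR, adjusted p below 0.05). In all 8 pairs, 17 genes (0.110%) passed with the medial type higher and 25 (0.162%) with the caudal type higher. In every single library, 50 of the 396 genes kept the lineages apart, 14 medial and 36 caudal. When the 6 type means themselves were the unit, so that the spread between types of a lineage set the error, limma called 45 genes (0.291%), 12 medial (0.0775%) and 33 caudal (0.213%), and 42 of these were among the 396. The 396 genes describe these 6 types, and the 45 are the count with types as the replicates.

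**Figure D2:**
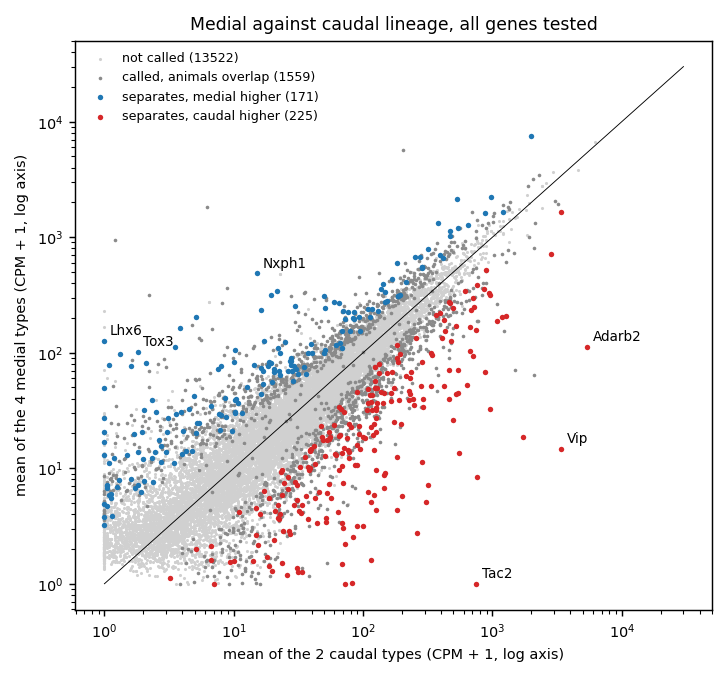
Mean of the 4 medial types against the mean of the 2 caudal types for all 15477 genes tested, as CPM + 1 on log axes, with the line of equality. Blue and red points are the 171 and 225 genes that separate the lineages in every animal sum, dark grey points passed the test but overlap between animals, and light grey points did not pass.

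Lhx6, the homeodomain factor that directs the medial lineage, had the widest gap on the medial side. Its level ranged from 69.8 CPM in Martinotti animal 2 through a median of 108 CPM to 233 CPM in upper chandelier animal 14, and it was 0 in all 4 caudal animal sums. Against a floor of 3 counts over the caudal lineage this is at least 598-fold higher (adjusted p = 3.81e-07, edgeR quasi-likelihood test). Counts of Lhx6 were found in 399 of 405 medial cells and in 0 of 127 caudal cells, which allows a share of cells with a count of up to 2.36% by counting error alone, at median depths of about 109100 and 80580 counts per cell.

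Tox3, an HMG-box transcription factor, ranged from 38.5 CPM in Martinotti animal 1 through a median of 86.8 CPM to 199.7 CPM in upper chandelier animal 14. It was 0.83 and 2.11 CPM in the interneuron-selective animals and 0.31 and 0 CPM in the CCK basket animals. The ratio of lineage means was 124, and the fitted log2 difference was 7.33 ± 0.44 (SE; adjusted p = 6.9e-07, edgeR). Cells with a count numbered 393 of 405 in the medial and 7 of 127 in the caudal lineage, so the separation was visible in most single cells. Nxph1, a secreted glycoprotein that binds alpha-neurexins, was the most abundant of the leading medial genes, at 297 CPM in long-projecting animal 18, a median of 469 CPM and 632 CPM in Martinotti animal 2. The caudal animals held 15.0, 7.39, 27.0 and 7.53 CPM, a 34.4-fold lower mean (log2 difference 5.17 ± 0.35, adjusted p = 1.51e-06, edgeR). No animal sum of one lineage came near the other for either gene.

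Masp1, a serine protease of the lectin complement pathway, and Klf5, a zinc-finger factor, followed the same split with more spread among medial types. Masp1 ran from 16.7 CPM in upper chandelier animal 13 to 324 CPM in Martinotti animal 1 with a median of 93.7 CPM, against 0.83, 0, 0 and 0.42 CPM in the caudal animals (adjusted p = 1.27e-05, edgeR). Klf5 ran from 7.74 CPM in upper chandelier animal 14 to 189 CPM in Martinotti animal 1 with a median of 97.5 CPM, and 1 caudal animal held 0.31 CPM (adjusted p = 1.45e-05, edgeR). In both genes the upper chandelier and PV basket animals were the lowest of the medial lineage, and none overlapped a caudal animal. Within upper chandelier animal 13, Masp1 was 52.0 CPM in library 1 and 2.14 CPM in the rest of the sum, nearer to the caudal values. The deep chandelier animals held 1.11 and 0.63 CPM of Masp1, below every medial animal, and 0.74 and 15.2 CPM of Klf5.

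Mpped1 and Mpped2, paralogous metallophosphoesterases, both separated the lineages. Mpped1 was 202 CPM on average in the medial and 4.09 CPM in the caudal types, with 0 in both interneuron-selective animals and 4.86 and 11.5 CPM in the CCK basket animals (ratio 49.4, adjusted p = 2.85e-06, edgeR). Mpped2 was 124 against 24.0 CPM, a smaller ratio of 5.16 (log2 difference 2.39 ± 0.41, adjusted p = 0.00213, edgeR). Bcl11b, a zinc-finger repressor also known from deep-layer projection neurons, averaged 232 against 15.2 CPM, and the nearest caudal value was 48.6 CPM in CCK basket animal 6. Its log2 difference was 4.51 ± 0.51 (adjusted p = 0.000106, edgeR). The medial animals of Bcl11b lay between 132 and 392 CPM, all above that value.

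Among membrane proteins, the calcium channel subunit gene Cacna2d2 averaged 79.8 against 1.08 CPM, a 73.6-fold ratio, with the lowest medial value of 16.7 CPM in upper chandelier animal 13 (log2 difference 6.40 ± 0.72, adjusted p = 0.000103, edgeR). Kcnk2, a leak potassium channel, averaged 68.7 against 16.0 CPM (log2 difference 2.18 ± 0.25, adjusted p = 0.000105, edgeR). The netrin receptor gene Unc5d averaged 339 against 20.5 CPM, and its lowest medial value, 47.2 CPM in Martinotti animal 2, stood far below the medial median of 454 CPM (log2 difference 3.74 ± 0.34, adjusted p = 1.99e-05, edgeR). Ociad2, of the ovarian carcinoma immunoreactive antigen family, and Cap2, an actin regulator, showed ratios of 44.6 and 11.1. Fchsd1 and Rell2 had ratios of 4.33 and 4.79, but the annotation places them over each other and their library counts correlated at 0.992 (Pearson, 46 libraries). The Rell2 call was lost without the long-projecting cells. The pair counts as 1 uncertain signal, since reads from overlapping genes cannot be told apart here.

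Tac2, which encodes neurokinin B, had the widest gap on the caudal side. It was 0 in all 10 medial animal sums and in all 405 medial cells, which allows a share of cells with a count of up to 0.741% by counting error alone. Such limits do not bound the share of cells that express the gene, and they leave out the spread between animals. The interneuron-selective animals held 536 and 243 CPM, and the CCK basket animals 856 and 1368 CPM, with counts in all 127 caudal cells. Against a floor of 3 counts over the medial lineage the caudal mean was at least 14314-fold higher (adjusted p = 4.05e-06, edgeR).

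Sp8, a zinc-finger factor of the caudal eminence, was 29.9 and 36.4 CPM in the interneuron-selective animals and 95.2 and 162 CPM in the CCK basket animals. A single count, in 1 of 405 medial cells, gave 0.118 CPM in the PV basket sum of animals 9 and 10, and the other 9 medial sums were at 0 (adjusted p = 3.14e-05, edgeR). In the caudal lineage 109 of 127 cells held a count. Vip separated the lineages too, at 2137 to 4528 CPM against a medial median of 0, but Vip-Flp was used to choose both caudal types, so this is a check of the labels. All but a trace of medial Vip came from upper chandelier library 1, at 374 CPM, and without that library the medial mean fell from 13.7 to 0.102 CPM.

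Cbln2, a secreted synaptic organizer that bridges neurexins and delta glutamate receptors, was 2062 and 2246 CPM in the interneuron-selective and 1069 and 1473 CPM in the CCK basket animals. Medial values ran from 0 to 60.04 CPM with a median of 11.2 CPM, the highest in long-projecting animal 17, a 97.0-fold ratio of means (adjusted p = 1.17e-06, edgeR). Adarb2, a brain RNA-binding protein of the adenosine deaminase family without known editing activity, was the most abundant of the leading caudal genes. Its caudal values were 5004, 3661, 7221 and 5703 CPM, and the medial ones ran from 26.9 to 521 CPM with a median of 43.0 CPM (log2 difference -6.21 ± 0.30, adjusted p = 1.63e-07, edgeR). Low Adarb2 counts were present in 374 of 405 medial cells, so the lineages differed in level more than in detection. Without upper chandelier library 1 the medial mean was 54.2 in place of 112 CPM, and the ratio of means 99.5 in place of 48.4.

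Gpd1, a cytosolic glycerol-3-phosphate dehydrogenase, averaged 305 CPM in the caudal and 4.14 CPM in the medial types (log2 difference -6.34 ± 0.58, adjusted p = 1.83e-05, edgeR), and was counted in 127 of 127 caudal and 98 of 405 medial cells. The water channel gene Aqp5 was 74.8, 11.1, 125 and 73.5 CPM in the caudal animals and 0 in all 10 medial ones, at least 1353-fold higher in the caudal lineage (adjusted p = 0.00029, edgeR). Aqp5 was counted in 97 of the 127 caudal cells. These genes are not usual markers of the lineages, and their caudal values did not overlap the medial ones in any animal.

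Both sortilin-related receptor genes Sorcs3 and Sorcs1 were far higher in caudal cells, 949 against 31.3 CPM and 632 against 51.3 CPM. Their log2 differences were -5.00 ± 0.32 (adjusted p = 1.1e-06, edgeR) and -3.64 ± 0.18 (adjusted p = 1.8e-07, edgeR). The copine gene Cpne7 averaged 553.5 against 12.6 CPM, and the acid-sensing channel relative Accn4 averaged 182 against 3.33 CPM, or 1.89 CPM without upper chandelier library 1. Zbtb16, a zinc-finger factor known from early development, was even across the caudal animals at 470, 478.5, 486 and 421 CPM, and its medial values ended at 65.3 CPM (log2 difference -4.01 ± 0.23, adjusted p = 3.81e-07, edgeR). Igfbp5, which binds insulin-like growth factors, averaged 71.3 against 1.19 CPM. These 15 medial and 13 caudal genes are among those with the widest gaps of separating genes of at least 50 CPM. All 28 passed in each of 14 fits that left out 1 animal sum, and 22 passed with type means as the unit. These fits reuse the sums that chose the genes, so passing was partly fixed by that choice.

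**Figure D3:**
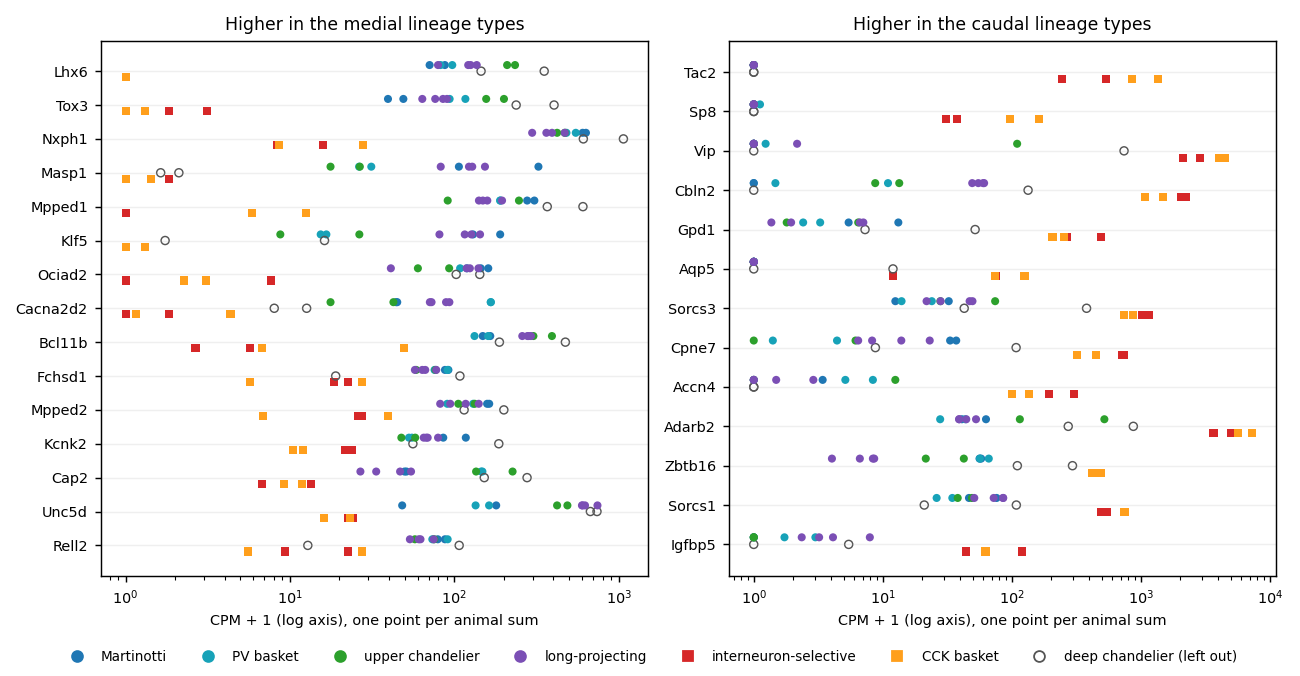
Level of 15 medial and 13 caudal genes with wide gaps, as CPM + 1 on log axes with 1 point per animal sum, circles for the 10 medial and squares for the 4 caudal sums, and open circles for the 2 deep chandelier animals. No square overlaps a filled circle in any row, which the choice of genes fixes, and several open circles lie between the lineages, as for Masp1, Klf5, Vip and Adarb2.

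Promoters are shown for the first genes on each side with a single start in the RefSeq table (GRCm38.p6, 250 bases before to 50 after the start), since their levels differ most completely between lineages. This build differs from the mm9 named in the submitters' processing notes, and the coordinates here are those of GRCm38.p6. Capitals mark the TATA box letters TATAAA on either strand. The first 2 are medial genes, Tox3 at chr8:90348203-90348502 on the minus strand and Nxph1 at chr6:8949769-8950068 on the plus strand. The other 2 are caudal genes, Tac2 at chr10:127724228-127724527 and Vip at chr10:5638968-5639267, both on the plus strand.
Tox3: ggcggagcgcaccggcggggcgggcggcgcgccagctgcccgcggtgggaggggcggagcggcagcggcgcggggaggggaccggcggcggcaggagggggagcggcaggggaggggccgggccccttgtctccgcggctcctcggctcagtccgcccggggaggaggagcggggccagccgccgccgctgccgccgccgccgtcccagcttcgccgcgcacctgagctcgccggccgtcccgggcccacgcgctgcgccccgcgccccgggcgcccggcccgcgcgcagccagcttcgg
Nxph1: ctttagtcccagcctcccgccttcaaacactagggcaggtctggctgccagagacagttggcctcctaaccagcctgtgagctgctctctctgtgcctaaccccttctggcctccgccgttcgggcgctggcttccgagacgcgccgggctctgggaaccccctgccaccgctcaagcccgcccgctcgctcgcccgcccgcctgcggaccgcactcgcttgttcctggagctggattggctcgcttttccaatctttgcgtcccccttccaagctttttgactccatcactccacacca
Tac2: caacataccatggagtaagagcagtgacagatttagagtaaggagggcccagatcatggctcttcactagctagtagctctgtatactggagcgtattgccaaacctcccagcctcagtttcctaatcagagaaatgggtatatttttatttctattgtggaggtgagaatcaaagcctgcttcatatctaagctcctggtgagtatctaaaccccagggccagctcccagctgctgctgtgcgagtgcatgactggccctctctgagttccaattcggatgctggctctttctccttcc
Vip: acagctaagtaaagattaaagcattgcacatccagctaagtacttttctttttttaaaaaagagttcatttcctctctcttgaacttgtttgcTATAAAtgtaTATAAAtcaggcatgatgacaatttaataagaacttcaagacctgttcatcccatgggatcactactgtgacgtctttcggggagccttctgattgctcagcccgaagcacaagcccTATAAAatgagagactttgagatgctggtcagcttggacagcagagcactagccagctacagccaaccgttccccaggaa
The Vip window holds TATAAA 3 times. None of the 4 windows holds TAATTA, the core bound by many homeodomain factors including the Lhx family, or AGGTCA, the core bound by nuclear receptors such as Nr2f2. TATAAA stood in 13.6% of all 32851 promoters of the table, in 10.4% of the 173 promoters of 122 genes that separate with the medial side higher, and in 5.99% of the 217 promoters of 162 genes with the caudal side higher. TAATTA stood in 5.29%, 3.47% and 2.76%, and AGGTCA in 16.3%, 10.4% and 14.7%, in the same order and counted on either strand. These shares are descriptions, and no search beyond this window was made.

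The regulators known for each lineage were mostly, but not wholly, on their own side. Of 9 tested medial regulators, 5 were higher in medial types and 1 in caudal types, and of 10 tested caudal regulators, 8 were higher in caudal and 2 in medial types. In the background 6.20% and 6.43% of all genes passed in these directions. Sox6, which acts downstream of Lhx6, averaged 309 CPM in the medial and 48.7 CPM in the caudal types. Its caudal animals held 71.4, 69.6, 27.9 and 25.7 CPM and the medial ones 118 to 573 CPM (log2 difference 2.75 ± 0.19, adjusted p = 2.04e-06, edgeR). Unlike Lhx6, Sox6 was thus present in caudal cells, 118 of 127 of which held a count. Of its values above 0, 42.0% were not whole numbers, and how such values arose is not stated in the labels.

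Satb1, a chromatin organizer, averaged 226 against 30.5 CPM (log2 difference 2.89 ± 0.33, adjusted p = 0.000106, edgeR). It was lowest among medial animals in upper chandelier animal 14, at 28.8 CPM, within the caudal range. Etv1, an ETS factor, averaged 18.7 against 0.704 CPM (log2 difference 4.46 ± 0.89, adjusted p = 0.00562, edgeR). Zeb2, a zinc-finger factor that acts early in medial cells, went the other way, at 861 CPM in the caudal and 352 CPM in the medial types (log2 difference -2.09 ± 0.34, adjusted p = 0.00137, edgeR). Every caudal animal lay between 673 and 1112 CPM, above all medial ones, of which long-projecting animal 16 was lowest at 2.60 CPM.

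On the caudal side Nr2f2, an orphan nuclear receptor also called COUP-TFII, was 106 and 215 CPM in the interneuron-selective and 287 and 185 CPM in the CCK basket animals, against a medial median of 1.02 CPM and a highest value of 30.9 CPM in upper chandelier animal 13 (log2 difference -6.61 ± 0.88, adjusted p = 0.000347, edgeR). Prox1, a homeodomain factor needed for caudal cells to mature, was 118, 95.0, 74.0 and 40.4 CPM against a medial median of 0 (adjusted p = 4.05e-05, edgeR). Upper chandelier library 1 held most of their medial counts, and without it the medial means were 1.06 CPM for Nr2f2 and 0.0603 CPM for Prox1, in place of 4.71 and 1.54 CPM. Prox1 was counted in 120 of 127 caudal and 15 of 405 medial cells.

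Npas1, Npas3 and Nr2f1 were higher in caudal types on average but not confined to them. Npas1, a bHLH-PAS factor, averaged 225 against 32.0 CPM (log2 difference -4.21 ± 0.47, adjusted p = 0.000103, edgeR), and Martinotti animal 2 reached 141 CPM, above the lowest caudal animal. Npas3, its relative, averaged 1273 against 207 CPM and did not overlap, with a highest medial value of 658 CPM (log2 difference -3.42 ± 0.43, adjusted p = 0.00023, edgeR). Nr2f1 averaged 230 against 42.9 CPM (log2 difference -3.20 ± 0.42, adjusted p = 0.000331, edgeR), and it lies over another annotated gene, A830082K12Rik, whose library counts correlated with it at 0.932. Id2, an inhibitor of bHLH factors, was higher in caudal types by the test (adjusted p = 0.00127, edgeR), yet its animals overlapped, with 16.6 CPM in interneuron-selective animal 3 and 148 CPM in upper chandelier animal 14. Tox2, an HMG-box gene listed with the caudal lineage, was higher in medial types, at 19.6 against 0.965 CPM (log2 difference 4.34 ± 0.79, adjusted p = 0.00336, edgeR). Sp9, the relative of Sp8, also averaged more in medial types, at 89.1 against 8.95 CPM (log2 difference 3.51 ± 0.91, adjusted p = 0.0236, edgeR), and it was called in 11 of the 14 fits that left out an animal sum. The Id2 call was lost without the CCK basket cells, and that of Sp9 without the upper chandelier, long-projecting or interneuron-selective cells.

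**Figure D4:**
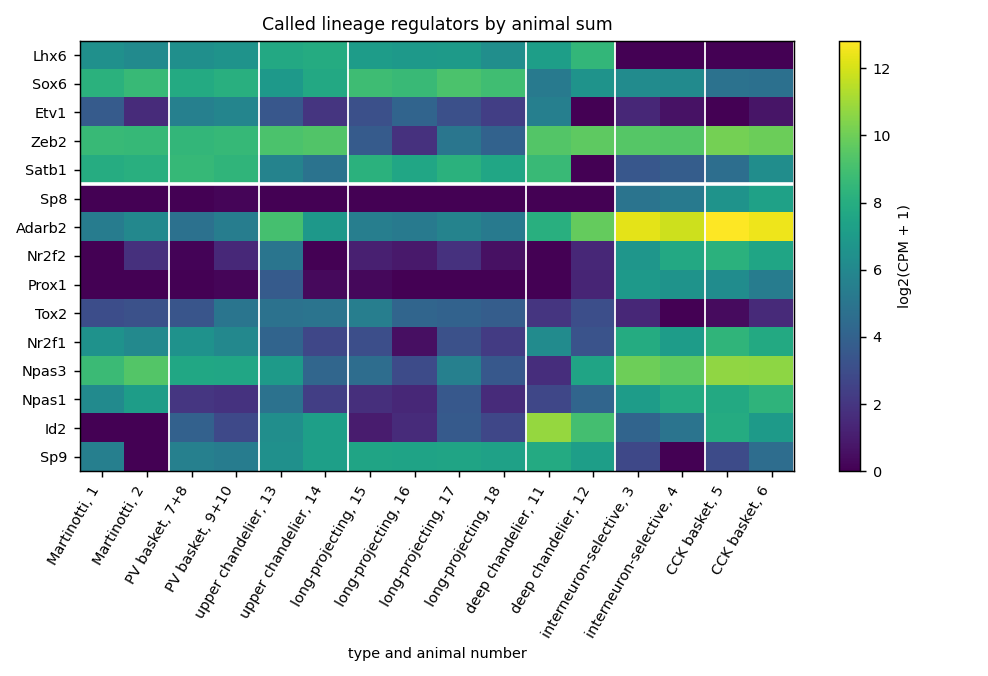
Levels of 5 called medial regulators (above the thick line) and the 10 called caudal regulators (below) as log2(CPM + 1) in 16 animal sums grouped by type, with deep chandelier cells in the middle. Lhx6 is at 0 in the 4 caudal sums, Sp8 and Prox1 are dark in most medial sums, and Zeb2, Tox2 and Sp9 lie opposite to the other genes of their list.

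The genes of GABA synthesis and uptake were on in every type but at unequal levels. Of 9 shared GABAergic genes tested, 4 were higher in medial and 1 in caudal types, and none separated the lineages. Beside this and each list below stand the shares over all genes tested, 6.20% medial and 6.43% caudal. For separation the shares over all genes are 1.10% medial and 1.45% caudal, so none among 9 genes is near them. Gad1 and Gad2, the 2 glutamate decarboxylases that make GABA, averaged 1644 against 700 CPM and 795 against 357 CPM (log2 differences 1.14 ± 0.17 and 1.13 ± 0.18, adjusted p = 0.000898 and 0.00127, edgeR). Both calls, and that of Cort below, were lost without the interneuron-selective cells.

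Neuropeptides and their receptors differed in both directions. Of 21 neuropeptide genes tested, 7 were higher in medial and 8 in caudal types, counting Sst, Vip and Cck, which were used to choose cells. Over all genes tested the shares were 6.20% and 6.43%. Cort, which encodes cortistatin, was the medial peptide gene that separated the lineages, at 23.0 to 322 CPM with a median of 58.4 CPM against 0, 0, 5.33 and 22.6 CPM (adjusted p = 0.00221, edgeR). The gap between the nearest animals of Cort was thus under 1 CPM. Crhbp, the binding protein of corticotropin-releasing hormone, averaged 1819 against 5.21 CPM (log2 difference 7.51 ± 0.92, adjusted p = 0.000196, edgeR), with the lowest medial value of 10.1 CPM in upper chandelier animal 14. The hormone gene Crh itself was caudal, at 1060 and 222 CPM in the interneuron-selective and 3930 and 3128 CPM in the CCK basket animals, against a medial median of 5.07 CPM and a highest value of 250 CPM (log2 difference -7.02 ± 0.62, adjusted p = 1.52e-05, edgeR). Pthlh, parathyroid hormone-like, was called on the caudal side by the contrast of log means (adjusted p = 4.99e-05, edgeR), although its plain mean was higher in medial types, at 149 against 111 CPM. The upper chandelier animals held 488 and 670 CPM, the PV basket sums 27.2 and 5.90 CPM, and the other medial animals at most 0.123 CPM. Sst, which was used to choose Martinotti and long-projecting cells, and Cck, used for CCK basket cells, give levels only, 952 against 0.208 CPM and 152 against 1231 CPM. The other driver genes averaged 362 against 7.84 CPM for Pvalb, 72.5 against 255 CPM for Calb2, 38.0 against 2.12 CPM for Nos1 and 30.3 against 18.4 CPM for Nkx2-1. These levels describe how the cells were chosen.

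Among 22 peptide receptor genes tested, 4 were higher in medial and 4 in caudal types, beside 6.20% and 6.43% of all genes. Npy1r, a neuropeptide Y receptor, averaged 53.2 CPM in the caudal and 6.24 CPM in the medial types, where the highest animal reached 10.6 CPM (log2 difference -3.08 ± 0.34, adjusted p = 0.000101, edgeR). Npy2r, another of its receptors, was 122, 79.1, 36.9 and 33.7 CPM against a medial highest of 12.3 CPM (adjusted p = 0.000298, edgeR), and its medial mean was 1.56 in place of 2.39 CPM without upper chandelier library 1. The orexin receptor gene Hcrtr2 averaged 14.9 against 3.05 CPM (log2 difference -2.34 ± 0.44, adjusted p = 0.00373, edgeR), a call lost without the long-projecting cells. Oxtr, the oxytocin receptor, was the largest medial difference among them named here, at 86.7 against 1.87 CPM (adjusted p = 0.00048, edgeR), but the PV basket and upper chandelier sums, at 1.18 to 4.30 CPM, lay within the caudal range.

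Receptors for amines and acetylcholine also split. Of 22 monoamine receptor genes, 3 were higher in medial and 5 in caudal types, beside 6.20% and 6.43% of all genes. Htr3a, the ionotropic serotonin receptor used to mark caudal cells, was 277, 65.4, 304 and 397 CPM in the caudal animals and 0 at the medial median, with 13.6 CPM in upper chandelier animal 13 (adjusted p = 2.35e-05, edgeR). Without upper chandelier library 1 the medial mean was 0.0446 CPM in place of 1.75 CPM. Adra1b, an alpha-1 adrenergic receptor, averaged 879.5 against 67.2 CPM and did not overlap (log2 difference -4.92 ± 0.50, adjusted p = 4.77e-05, edgeR). Htr2c averaged 115 against 21.7 CPM (log2 difference -2.42 ± 0.39, adjusted p = 0.00137, edgeR), whereas Htr2a, another serotonin receptor, was low in both and higher in medial types, 11.1 against 0.406 CPM (adjusted p = 0.00641, edgeR), a call lost without the interneuron-selective cells. Of 13 acetylcholine receptor genes, 1 was higher in medial and 3 in caudal types. The nicotinic subunit Chrna4 averaged 145 against 5.79 CPM (log2 difference -4.83 ± 0.73, adjusted p = 0.000934, edgeR), and the muscarinic receptor Chrm2 81.4 CPM in medial against 9.01 CPM in caudal types (log2 difference 2.34 ± 0.28, adjusted p = 0.000158, edgeR). Chrm2 lies over another annotated gene, whose reads cannot be told apart from its own, and its call was lost without the long-projecting cells.

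Calls among synaptic organizers were mostly on the caudal side in one of the lists. Of 28 neurexin, neuroligin and leucine-rich organizer genes tested, 10 were higher in caudal and 1 in medial types, beside 6.43% and 6.20% of all genes. Nrxn2, a presynaptic adhesion receptor, averaged 837 against 366 CPM (log2 difference -1.29 ± 0.12, adjusted p = 2.56e-05, edgeR) and Nrxn3 3207 against 1933 CPM (log2 difference -0.76 ± 0.09, adjusted p = 0.000209, edgeR), with overlapping animals in both. Between Martinotti and interneuron-selective cells alone Nrxn3 had the opposite sign. Neurexin ligands were called on both sides. On the medial side Nxph1 was joined by Nxph2, at 26.2 against 1.20 CPM (log2 difference 3.86 ± 0.59, adjusted p = 0.000989, edgeR), and on the caudal side Cbln2 was joined by Nxph3, at 26.0 against 1.69 CPM, or 1.01 CPM without upper chandelier library 1 (adjusted p = 0.0116, edgeR). Nxph3 was called in 13 of the 14 fits that left out an animal sum, and not without the long-projecting cells.

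Cnr1 is the cannabinoid receptor by which depolarized neurons silence their own inhibitory inputs. It was one of 2 called among 10 endocannabinoid genes, both higher in caudal types, beside 6.43% of all genes. It was 2449 and 2768 CPM in the CCK basket and 559 and 223 CPM in the interneuron-selective animals, and the medial values ran from 3.20 to 231 CPM (log2 difference -4.02 ± 0.59, adjusted p = 0.000721, edgeR). Interneuron-selective animal 4 therefore overlapped upper chandelier animal 13, whose library 1 held 794 CPM. Without that library the medial mean of Cnr1 was 40.7 in place of 69.6 CPM. The chemokine gene Cxcl14 was 714, 199.9, 1247 and 855 CPM in the caudal animals and 0.477 CPM at the medial median (log2 difference -8.73 ± 0.84, adjusted p = 2.71e-05, edgeR). Its highest medial value, 55.1 CPM, was again upper chandelier animal 13, and the medial mean without library 1 was 0.460 in place of 7.35 CPM.

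Glutamate receptor genes went in both directions. Of 18 ionotropic genes tested, 4 were higher in medial and 6 in caudal types, beside 6.20% and 6.43% of all genes. The AMPA receptor subunits Gria1 and Gria3 averaged 2157 against 533 CPM and 286 against 50.7 CPM (log2 differences 1.74 ± 0.20 and 2.38 ± 0.27, adjusted p = 0.000113 for each, edgeR). Of 7 metabotropic genes, 2 were higher in caudal types and separated them, Grm8 at 225 against 38.3 CPM and Grm7 at 680 against 235 CPM (log2 differences -2.58 ± 0.30 and -1.92 ± 0.13, adjusted p = 0.000143 and 2.12e-06, edgeR). Both are presynaptic receptors that lower release. Over all genes 1.45% separated on the caudal side. Grm3, called on the medial side, passed in 2 of the 14 fits that left out an animal sum. Of 14 GABA receptor genes 2 were higher in medial and 3 in caudal types. None separated the lineages, near the shares of 1.10% and 1.45% over all genes.

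Ion channel genes were split evenly in potassium channels and leaned to the caudal side in calcium channels. Of 51 potassium channel genes tested, 11 were higher on each side, beside 6.20% medial and 6.43% caudal over all genes. Kcnt1 and Kcnt2, sodium-activated potassium channels, went opposite ways, Kcnt1 at 37.7 CPM in medial against 1.33 CPM in caudal types and Kcnt2 at 524 CPM in caudal against 43.3 CPM in medial types (adjusted p = 0.00172 and 0.000118, edgeR). Both separated the lineages, although 53.4% of the Kcnt1 values above 0 were not whole and Kcnt2 lies over another annotated gene. Kcnq5 averaged 667 against 102 CPM (log2 difference -2.83 ± 0.22, adjusted p = 5.13e-06, edgeR). Of 22 calcium channel genes, 4 were higher in medial and 8 in caudal types. Of 14 sodium and HCN channel genes 1 was higher in medial types, near the share over all genes.

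Release and calcium-handling genes leaned to neither side alone. Of 32 synaptotagmin and release genes, 7 were higher in medial and 5 in caudal types, and 3 separated, all medial. Over all genes 6.20% and 6.43% were called in these directions, and 1.10% separated on the medial and 1.45% on the caudal side. Syt7, a slow calcium sensor, averaged 229 against 68.3 CPM (log2 difference 1.65 ± 0.21, adjusted p = 0.00027, edgeR), and Syt4 272 against 58.3 CPM (log2 difference 2.15 ± 0.38, adjusted p = 0.00287, edgeR), a call lost without the long-projecting cells. The complexin genes, whose products clamp and promote vesicle fusion, were opposed, with Cplx1 at 1133 against 471 CPM on the medial side and Cplx2 at 598 against 239 CPM on the caudal side (log2 differences 1.23 ± 0.14 and -1.51 ± 0.21, adjusted p = 0.000103 and 0.000574, edgeR). Among 16 calcium-binding genes, 4 were medial and 6 caudal, counting Calb2, a driver gene used to choose cells. Of 15 Rgs genes, regulators that shorten G-protein signals, 5 were caudal and 4 medial, and 4 of the caudal ones separated. Rgs8 and Rgs12 averaged 423 against 50.5 CPM and 283 against 10.2 CPM (log2 differences -4.86 ± 0.23 and -5.35 ± 0.37, adjusted p = 1.63e-07 and 2.04e-06, edgeR). Without upper chandelier library 1 the medial mean of Rgs12 was 6.76 CPM. Of 25 cyclic nucleotide enzyme genes 6 were medial and 4 caudal, led by Pde4b at 195 CPM in caudal against 23.3 CPM in medial types (adjusted p = 3.88e-06, edgeR), 85.4% of whose values above 0 were not whole.

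Adhesion and guidance genes leaned to the caudal side in some families. Among 30 contactins and immunoglobulin adhesion genes, 9 were caudal and 2 medial, beside 6.43% and 6.20% of all genes. Cntn4, a contactin of the axon surface, was 971, 1413, 1158 and 1171 CPM against 87.2 to 330 CPM in the medial animals (log2 difference -2.59 ± 0.20, adjusted p = 4.34e-06, edgeR), with 65.8% of its values above 0 not whole. Dscam averaged 666 against 165 CPM, whereas Opcml, a GPI-anchored adhesion molecule, averaged 1332 CPM in medial against 381 CPM in caudal types (log2 differences -2.55 ± 0.23 and 1.86 ± 0.21, adjusted p = 1.52e-05 and 0.000103, edgeR). Of 24 cadherin genes, 6 were medial and 7 caudal, of 29 semaphorin, plexin and ephrin genes 3 and 8, and of 18 slit, Robo, netrin and teneurin genes 3 and 3. Odz4, a teneurin, separated with Unc5d on the medial side, at 269 against 63.8 CPM (log2 difference 2.13 ± 0.28, adjusted p = 0.000306, edgeR). Of 38 growth factor and receptor genes, 2 were medial, near the share over all genes, and 8 caudal. Igf1, insulin-like growth factor, averaged 544 against 69.6 CPM on the caudal side beside its binding protein gene Igfbp5, and the kinase receptor gene Alk 242 against 50.1 CPM on the medial side (log2 differences -3.85 ± 0.36 and 2.14 ± 0.28, adjusted p = 2.1e-05 and 0.000342, edgeR). Of 30 matrix and perineuronal net genes 7 were medial and 4 caudal, and of 49 further transcription factor genes 7 and 12. Nfix, a nuclear factor I gene, averaged 144 CPM in caudal against 7.82 CPM in medial types (log2 difference -5.27 ± 0.68, adjusted p = 0.000273, edgeR).

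Genes of the axonal cytoskeleton and of mitochondrial respiration were called on the medial side alone. Of 8 neurofilament and axon caliber genes tested, 6 were higher in medial and 0 in caudal types, beside 6.20% and 6.43% of all genes. Nefm and Nefl, the medium and light neurofilament chains, were 0 in all 4 caudal animals, and ranged from 1.60 to 148 CPM and from 1.21 to 61.7 CPM in the medial ones, at least 229-fold and 125-fold higher (adjusted p = 0.00063 and 0.00154, edgeR). The lowest value of each was in an upper chandelier animal, animal 14 for Nefm and animal 13 for Nefl. The other upper chandelier animal held 17.9 CPM of Nefm and 35.5 CPM of Nefl. Both lowest values lie below 2.49 CPM, the level of 3 counts in interneuron-selective animal 3. In animal 4 that level is 1.58 CPM, above the lowest Nefl value. The 0 in these shallow sums therefore does not show that the lowest medial animals lie above them. Of 48 oxidative phosphorylation genes, 21 were higher in medial and 0 in caudal types. Of the 48, 4 separated, beside 1.10% of all genes on the medial side. The median log2 difference of the list was 0.60 against 0.05 over all genes tested. Cox5a, a cytochrome oxidase subunit, averaged 672 against 275 CPM, and Atp5a1, a subunit of ATP synthase, 1612 against 880 CPM (log2 differences 1.29 ± 0.14 and 0.90 ± 0.11, adjusted p = 0.000101 and 0.000193, edgeR). With median-ratio scaling the counts were 19 and 0, and without the oligodendrocyte-carrying libraries 19 and 0. Age, depth and layer differed between types, and their part in these differences was not tested. Of 13 immediate early genes 2 were medial and 0 caudal, led by the phosphatase gene Dusp1 at 77.4 against 13.3 CPM (log2 difference 3.41 ± 0.41, adjusted p = 0.00017, edgeR), whose call was lost without the interneuron-selective cells.

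**Figure D5:**
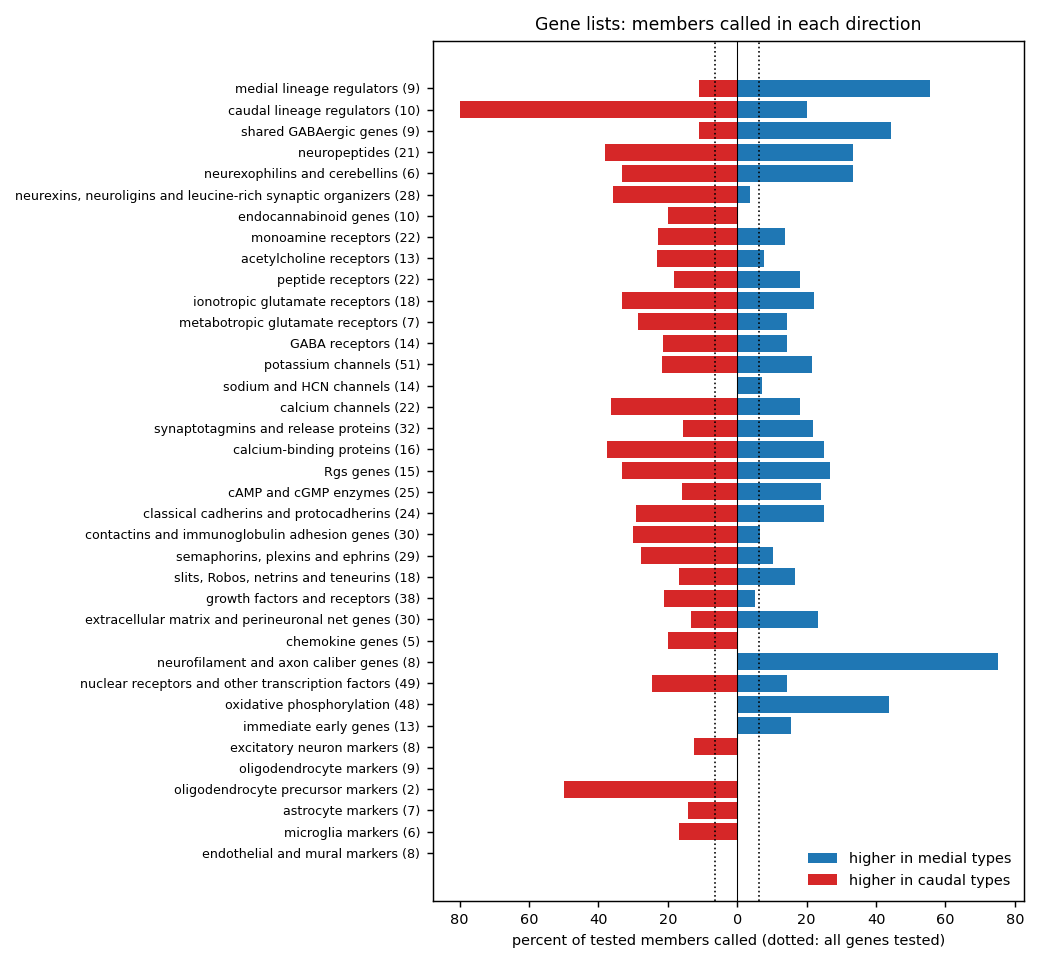
Percent of the tested members of each gene list that passed the test, with members higher in caudal types to the left and members higher in medial types to the right, and the number tested in parentheses. Dotted lines give the shares over all genes tested, 6.43% and 6.20%. Neurofilament and respiration genes extend to the medial side alone, and neurexin and contactin lists mainly to the caudal side.

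Lists for other cell types were small and held at most 1 call each, beside 6.20% medial and 6.43% caudal over all genes tested. None of 9 oligodendrocyte and none of 8 endothelial and mural markers passed in edgeR. One of 8 excitatory neuron markers, Camk2a, was higher in caudal types, at 212 against 61.6 CPM (adjusted p = 0.000225), as was 1 of 7 astrocyte markers, Slc1a2, at 190 against 37.9 CPM (adjusted p = 0.00545). The microglia marker C1qb and the precursor marker Olig2 passed too (adjusted p = 0.0413 and 0.047, edgeR), at 9.18 and 4.34 CPM in caudal types, and both calls were lost in most fits that left out an animal sum. The excitatory markers as a group summed to 4.23 to 9.14 CPM in the caudal and 4.06 to 52.8 CPM in the medial animals, with Tbr1 and Emx1 at 0 in the caudal ones. The astrocyte markers Aldh1l1, Aqp4, Gfap and Gja1 summed to 3.14 to 19.9 CPM and 0.246 to 17.0 CPM.

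Genes that one type kept from separating the lineages were sought next. Crhbp would have separated but for the upper chandelier cells, and Nek7, a kinase, but for the long-projecting cells, at 160 against 5.74 CPM with 2.09 CPM in long-projecting animal 18. On the caudal side Crh, Cnr1, Ramp1 and Pnoc, the gene of prepronociceptin, would have separated but for the interneuron-selective cells. For Cnr1 the highest medial value was that of upper chandelier animal 13. Its Cnr1 counts all came from library 1, at 794 CPM against 0 in the rest of the sum. Ramp1, an accessory subunit of the calcitonin-related peptide receptors, was 101 and 85.4 CPM in CCK basket animals but 9.97 and 7.91 CPM in the interneuron-selective ones, where the medial values reached 8.01 CPM. Nr2e1, an orphan nuclear receptor, was the reverse, at 111 and 201 CPM in interneuron-selective and 9.72 and 17.8 CPM in CCK basket animals, with medial values up to 15.8 CPM. The calls of Ramp1 and Pnoc were lost without the CCK basket cells, that of Pnoc also without the long-projecting cells, and that of Nr2e1 without the interneuron-selective cells. Nfib, a nuclear factor I gene, failed only through the upper chandelier cells, which reached 528 CPM against 423 to 690 CPM in caudal animals.

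Levels of many separating genes also varied between types of a lineage. Among the 171 medial genes, the 4 medial type means lay within 2-fold of each other in 84. The type nearest to the caudal cells was the upper chandelier in 53, Martinotti in 45, long-projecting in 45 and PV basket in 28. Among the 225 caudal genes, the 2 caudal type means lay within 2-fold in 167, and the medial type with the highest level was the upper chandelier in 84 and PV basket in 69. The upper chandelier counts, 53 and 84, include upper chandelier library 1, where the caudal lineage markers summed to 1882 CPM. What that library contributes to these counts was not tested. Single pairs of types differed widely in how many genes passed, from 219 medial and 283 caudal genes between upper chandelier and CCK basket cells to 1438 and 985 between long-projecting and interneuron-selective cells. The numbers of animals and the depth differ between these pairs, so the counts are not a measure of distance.

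Deep chandelier cells, which the fit did not use, carry the Nkx2.1-CreER label and so offer a further medial type, with the reservation that library 4 stands apart. Of the 171 medial genes, both deep chandelier animals lay above all caudal animals in 91 (53.2%), 1 of the 2 animals in 50 and neither in 30. Of the 225 caudal genes, both lay below all caudal animals in 167 (74.2%), 1 in 42 and neither in 16. The genes were chosen with the caudal sums at one end, so such positions are partly fixed by that choice. The shares over all genes tested were not computed, and the counts are descriptions. Lhx6 was 145 and 352 CPM, Tox3 237 and 404 CPM and Nxph1 1069 and 609 CPM in these animals, within or above the medial range. Tac2 and Sp8 were 0 in both. Masp1 and Cacna2d2 (7.03 and 11.6 CPM) were below every medial animal in both, Klf5 in 1 of them, and Sox6 was 38.5 and 94.4 CPM, partly within the caudal range. In Vip the animals were at 0 and 741 CPM, the latter from library 4 at 1918 CPM. Id2 was higher in these cells than in any animal of either lineage, at 1778 and 504 CPM.

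Flow cell, labelled sex and type were partly shared, which allowed comparisons inside them. Martinotti and interneuron-selective cells were females run on 1 flow cell, and between them 894 genes (5.78%) passed, among them 186 of the 396 separating genes. Among types labelled female, Martinotti and upper chandelier against interneuron-selective cells, 1151 genes (7.44%) passed, 245 of the separating genes among them. Between the long-projecting and CCK basket cells, all labelled male but from different flow cells, 1614 (10.4%) passed, with 253 of the separating genes. Their signs are fixed by the choice of genes. The comparisons reuse the fit and the sums that chose the genes. Passing, and the direction of called genes, are therefore partly fixed too, and this is no independent check of flow cell or sex. Of the 28 leading genes 28, 28 and 27 passed in these comparisons, the exception being Rell2 in the last. All of the 1955 called genes that passed within females kept their direction, 851 in number, while 2 of those that passed within the flow cell turned, and 12 of those within males. CCK basket cells were the sole type on their flow cell, and PV basket cells likewise, so that for them type and flow cell cannot be told apart.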

How the data were processed

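Per the labels' protocols, single fluorescent neurons were isolated by hand, amplified in 2 rounds of linear amplification and sequenced from the polyA end, with a random tag per amplified molecule. Per the submitters' processing notes, Bowtie 0.12.7 and the mm9 build were used. The authors deposited expected counts per gene and cell for 23335 genes. Of the values above 0, 4.07% were not whole (tolerance 1e-06), and the labels do not say how reads shared between genes were divided.

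Counts were summed per animal into 14 sums, rounded, and filtered with filterByExpr by type, leaving 15477 genes. Libraries held 530927 to 4568242 counts. edgeR 4.0.16 (R 4.3.3) fitted the 6 types by quasi-likelihood after TMM scaling, with 8 residual degrees of freedom. The test set the mean of the fitted log levels of the 4 medial types against that of the 2 caudal types. p-values were adjusted over all genes by Benjamini and Hochberg and read at 0.05. The labels number 18 animals, while the series' design text speaks of 4, and animal 14 carries libraries labelled 40 and 58 days. Whether the sums are separate animals is therefore uncertain, and p-values measure only the spread between these sums, which may be technical. Ratios are of lineage mean CPM, a plain mean over types, and need not match the fitted log2 differences. With no count in the lower lineage, a floor of 3 counts over that lineage was used (0.0525 CPM medial, 0.210 CPM caudal), which covers counting error only, and with 1 to 3 counts no ratio is given. Fitted log2 differences are given where all 6 types held counts.

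The genes named are the 15 per direction with the widest gap between lineages (CPM + 1) among separating genes of at least 50 CPM with a usual symbol, the 8 per direction of at least 50 CPM in which 1 type prevented separation, up to 4 leading members of each of 37 gene lists (more for regulators, GABAergic genes and neuropeptides), and the driver genes. Some genes that this rule names are not reported here, and none was put in their place. Members, lists and rules were chosen with earlier results of these data known. DESeq2 1.42.0, limma 3.58.1 and other units, filters and subsets were alternatives. The code was tested on simulated data.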

Additional observations from a re-analysis of the deposited data

Results flagged for a closer look

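Among 46 groups of samples or libraries tested for a single far value, chance flags about 1 in 20. The caudal lineage markers summed to 1882 CPM in upper chandelier library 1, far from the other 4 libraries of that type at 60.8 to 234 CPM. In that library the cell with the most Vip held 43.1% of the Vip counts, and Vip and Lhx6 were counted together in 16 of 16 cells. The same markers summed to 2081 CPM in deep chandelier library 4, far from the other libraries of that type. Adarb2 alone gave 2031 CPM of that sum. Vip, measured there outside the lineage comparison, reached 1918 CPM in that library, while Cxcl14 and Nr2f2 were at 0. The oligodendrocyte markers summed to 852 CPM in interneuron-selective library 3 and to 697.7 CPM in long-projecting library 2, each far above the rest of its type, and to 9.335 CPM in 1 deep chandelier library, a low level that stood out only against lower ones. Vip was at 1.167 CPM in long-projecting animal 15 and at 0 in the other 3 long-projecting animals.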

How the results depend on the processing

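The count of 1955 called genes was 3000 in DESeq2, 3180 with libraries as the unit, 816 in limma voom, 493 with lineage as the only term and 45 over type means in limma. It was 637 without long-projecting cells, 894 within the shared flow cell and 1151 within females. The 396 separating genes became 50 with libraries as the unit, 50 with every library required to separate and 42 over type means in limma. They were 42 with all 8 type pairs required to pass the test, and 257 with deep chandelier cells as a further medial type. They became 1242 with type means in place of animal sums, 730 without Martinotti, 1052 without interneuron-selective and 1458 without CCK basket cells. Without upper chandelier cells they were 567, without PV basket cells 443 and without long-projecting cells 330. The cause of these changes was not tested. Leaving out 1 animal sum gave 1266 (without PV basket replicate 1) to 2130 called and 366 to 633 separating genes, the latter without CCK basket replicate 2. With the library number as a replicate block 2103 were called and 50 separated. These numbers are shared by label only, as the deviations of same-numbered libraries correlated at a median of -0.0021. Without upper chandelier library 1, left out after seeing the data, the counts were 1929 and 388, and without the 2 libraries with oligodendrocyte genes 1888 and 377.

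Of 151 named genes, 131 passed in all 14 fits that left out an animal sum and 26 under every alternative run. They were named by their call on the same sums, so passing was partly fixed. Some fitted log2 differences turned, and the cause was not tested. With lineage as the only term Igbp1 was -0.090 and Pthlh 0.14. Without Martinotti cells Reln was -0.074. Without interneuron-selective cells Igbp1 was -1.26 and Tmub1 0.91, and without CCK basket cells Dlx1 was 0.14 and Grm3 -0.61. Within the flow cell Adcy2 was 1.56, Cacng5 1.26, Chrm3 0.92, Grm3 -0.93, Gucy1a3 -0.11 and Nrxn3 0.29. Within females Dlx1 was 0.59, Grm3 -0.89 and Nrxn3 0.067. Within males Calb2 was 1.41, Gabrd -0.48, Igbp1 -0.72, Reln -0.70 and Tmub1 0.72. With 2 animals in most types and animal sums from 1203737 counts, small differences and low genes are the least certain.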
